A study of Mus musculus with 6 samples.

Results

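Unconventional myosins are motor proteins that move along actin filaments and carry membranes, organelles or signalling domains, unlike the conventional myosins of muscle and stress fibres, which pull filaments against each other. Their heavy chains share a motor domain that binds ATP and actin, followed by a lever arm that holds calmodulin or related light chains and a tail that differs from class to class. Pigment cells are known for this family because class V myosin, with its adaptor melanophilin and the GTPase Rab27a, holds melanosomes on actin at the cell edge.

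The 9 genes Myo1c, Myo1d, Myo1e, Myo5a, Myo6, Myo9a, Myo9b, Myo10 and Myo18a were found by symbol, 1 row each, among the 27179 genes of the expression table. The family had been selected on a small p-value of Myo6 in the authors' comparison of treated and control cells. That comparison is not used here, and what follows is the level of the genes. A small p-value is reached more easily by a gene with many reads, so the level is not independent of the choice and is given as a description.

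Levels came from B16F10, an established mouse melanoma line labelled as WT and grown in medium with fetal bovine serum. RNA was sequenced from 3 libraries of cells treated with ozonated olive oil (OZO) and from 3 libraries of cells treated with olive oil without ozone (OLO), each at 0.01% for 6 h. Every value below is a mean over all 6 libraries, as the authors' table gives it, so it holds both treatments in equal parts and shows no difference between them. The libraries were not analysed one by one. No spread between replicates, no test and no OZO against OLO change is therefore given here. Whether neighbouring genes in an order differ beyond that spread is unknown. In bulk RNA, fewer cells with a transcript and less transcript per cell cannot be told apart.

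The level was the mean log2 CPM, with CPM the counts of a gene scaled to a common library size, turned back to CPM, which makes it a geometric mean. The 6025 genes without a read shared the lowest value, which placed the geometric mean of the library sizes at 19641946 reads, so that 1 CPM stood for 19.6 reads in a library. Read totals of single libraries are unknown. Intervals given with a CPM are 95% Poisson intervals on 6 times the geometric mean of the reads in a library, which is at most the reads in all, and cover counting error only. Longer transcripts collect more reads, so the levels of different genes were set side by side as CPM per kb of their longest annotated transcript. Counts of genes past a limit of 1 or 10 CPM are in CPM and depend on length. Such a length was found for 23906 genes, the 9 members included.

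The label of a melanoma line was checked against markers of pigment cells. Of 10 melanocyte markers, 9 were at or above 1 CPM, led per kb by Tyrp1 and Dct, enzymes of melanin synthesis, at 2144 and 2039 CPM per kb. Oca2, a melanosome membrane protein, was at 0.924 CPM. All 7 keratinocyte markers were below 1 CPM, and Krt5 and Dsg3 had no read in any library. Of the markers of fibroblasts, endothelium and blood cells, 3 of 6, 2 of 5 and 2 of 6 reached 1 CPM, and none reached 10 CPM. Of all 27179 genes, 43.7% reached 1 CPM and 32.3% reached 10 CPM. The counts at 1 CPM of these last lists lay near that share and do not set them apart from other genes.

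What the 9 genes have in common in sequence is the motor domain, which holds ATP with a phosphate-binding loop. The codons of this loop are shown to let the members be compared at 1 site of the motor. Loops of this kind also occur in many other nucleotide-binding proteins. Each line runs 5′ to 3′ along the coding strand of the GENCODE M21 transcript with the longest coding sequence, with the 24 bases of the 8 loop codons in capitals and 9 bases of coding sequence on each side in lower case.
Myo5a: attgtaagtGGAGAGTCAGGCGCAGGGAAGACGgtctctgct
Myo10: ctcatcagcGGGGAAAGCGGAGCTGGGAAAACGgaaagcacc
Myo6: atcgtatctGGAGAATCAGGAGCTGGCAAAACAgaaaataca
Myo1c: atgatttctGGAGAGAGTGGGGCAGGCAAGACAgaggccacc
Myo1e: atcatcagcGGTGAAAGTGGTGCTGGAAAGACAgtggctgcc
Myo1d: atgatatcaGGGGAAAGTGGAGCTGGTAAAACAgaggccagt
Myo9a: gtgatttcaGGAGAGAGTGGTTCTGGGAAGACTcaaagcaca
Myo9b: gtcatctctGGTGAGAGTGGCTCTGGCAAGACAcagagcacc
Myo18a: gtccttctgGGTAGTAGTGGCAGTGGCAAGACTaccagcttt

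The loop codons of 6 members coded for all 8 residues of the usual myosin loop. Myo9a and Myo9b matched it at 7 of 8 residues and Myo18a at 6 of 8. Although the residues were mostly the same, the 9 stretches of 24 bases were all different, and 36 pairs of members had between 12 and 21 equal bases, with a median of 17. On GRCm38, the build named mm10 by the authors, the Myo5a loop lies at chr9:75130003-75130026 in exon 5, that of Myo6 at chr9:80242224-80242247 in exon 6, and that of Myo10 at chr15:25722171-25722194 in exon 5. The loop of Myo18a lies at chr11:77818701-77818724 in exon 6 and starts at residue 546 of the protein. In Myo1d, which lies on the minus strand, the loop codons are divided between exons 2 and 3, from chr11:80685921-80692881. Over whole proteins the most alike members were Myo9a and Myo9b, with 48.9% of the shorter protein identical, then Myo1c and Myo1d with 42.9%. The median over all 36 pairs was 33.2%.

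In these cells 8 of the 9 genes were clearly expressed, and Myo1d had few reads. The 8 genes were at or above 1 CPM and also at or above 10 CPM, as were 43.7% and 32.3% of all 27179 genes. The members' longest transcripts have 4699 to 12252 bases, with a median of 7513, against a median of 2717 over all genes with a length, and the part of length in these shares was not tested. Of 15 other unconventional myosins listed, 14 were found by symbol, and 4 of these were at or above 1 CPM. The division into members and other genes was made with earlier results of these data known, so it may itself follow the level, and nothing is read from the difference between these counts. Per kb, Myo5a was the highest member and Myo1d the lowest, and the remaining 7 lay between 6.28 and 22.7 CPM per kb. The median of the 9 genes was 14.7 CPM per kb, beside 1.87 over genes with reads and a length. Over all genes with a length, those without a read included, it was 0.360.

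**Figure D1:**
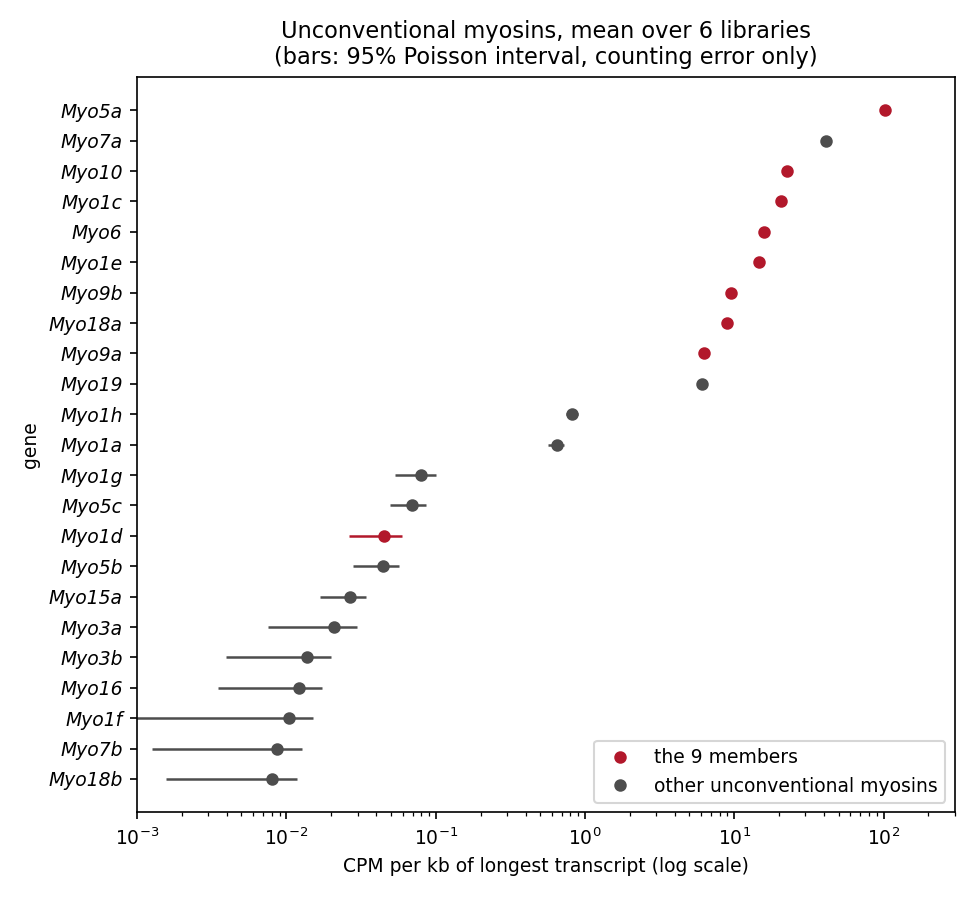
Mean level over the 6 libraries of 23 unconventional myosins, in CPM per kb of the longest transcript on a log axis, with the 9 members in red, other genes in grey and bars for the 95% Poisson interval of counting after removal of the 0.5 reads that voom adds (the bar of Myo1f runs past the left edge). Myo5a stands highest at 102 CPM per kb, and Myo1d, at 0.0453, lies among the genes with few reads.

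Myo5a encodes myosin Va, the melanosome carrier whose loss gives the dilute coat colour of mice. The gene lies on chromosome 9 from 75071015 to 75223688 on the plus strand, and its longest transcript has 11702 bases. Its mean log2 CPM was 10.22, or 1190 CPM (95% Poisson interval 1184 to 1197), about 23383 reads in a library. Per kb it reached 102 CPM, above 97.6% of the genes with reads and a length. This was 4.49 times the level per kb of Myo10, the next member on this scale. Per kb of coding sequence Myo5a was at 214, and the next member there was Myo6, at 32.3. By CPM per kb of the longest transcript, Myo5a alone made up 50.8% of the summed CPM per kb of the 9 genes.

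Myo10 encodes myosin X, which travels to the tips of filopodia and binds integrins through its tail. It lies on chromosome 15 from 25622525 to 25813673 and was measured at 184 CPM (95% Poisson interval 182 to 187), or 22.7 CPM per kb. Myo1c, a short-tailed class I myosin that links membranes to actin and takes part in delivery of vesicles to the cell surface, lies on chromosome 11 from 75650504 to 75673910. Its level was 97.7 CPM (95% Poisson interval 95.9 to 99.5), which per kb was 20.7. Myo10 was thus only 1.09 times Myo1c on the scale per kb.

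Myo6 encodes myosin VI, the motor that walks towards the minus end of actin, opposite to most myosins, and serves endocytosis and autophagy. The gene lies on chromosome 9 from 80165031 to 80311729. It was measured at a mean log2 CPM of 6.97, or 125 CPM (95% Poisson interval 123 to 127), from about 2459 reads in a library. On the scale per kb its level was 15.8, above 78.1% of genes with reads and a length, between Myo1c and Myo1e in the order of the members.

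The class I members spanned the widest range. Myo1e, a long-tailed class I myosin of endocytic sites and of the kidney filter, lies on chromosome 9 from 70207350 to 70399766 and had 68.9 CPM, or 14.7 CPM per kb. Myo1c exceeded it 1.41 times per kb. Myo1d, known from the control of left-right asymmetry in flies and vertebrates, lies on chromosome 11 from 80482126 to 80780025 and had a mean log2 CPM of -2.04, or 0.243 CPM. After removal of the 0.5 reads that voom adds to each count, the level was 0.217 CPM (95% Poisson interval 0.141 to 0.319), about 4.27 reads in a library. Because so few reads leave whole-number steps in the mean, the sets of 6 read numbers that could give it were counted. There were 225, each with at least 28 reads in all and with at least 10 reads in the library with the most. They ran up to 375070 reads, all in 1 library with the other 5 at 0, so the mean does not tell how the reads were spread. With the 0.5 added reads left in, Myo1e was about 324 times and Myo1c about 457 times as high as Myo1d per kb. Per kb of coding sequence these ratios were about 258 and 381. The wide interval of Myo1d leaves all of them rough.

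Myo9a and Myo9b encode the class IX myosins, which carry a GTPase-activating domain in their tails. Myo9a, on chromosome 9 from 59750896 to 59928866, had 76.9 CPM (95% Poisson interval 75.3 to 78.5). Its longest transcript, 12252 bases, was the longest of the 9, and its level per kb, 6.28, was the lowest after Myo1d, although per kb of exon union Myo18a, at 4.17, lay below Myo9a, at 5.90. Myo9b, on chromosome 8 from 71272714 to 71360713, had 69.6 CPM and 9.54 CPM per kb. The pair therefore changed places between the scales, with Myo9b 1.52 times Myo9a per kb.

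Myo18a encodes myosin XVIIIa, which has a PDZ domain, binds the Golgi protein GOLPH3 and is thought to be a weak or inactive motor. It lies on chromosome 11 from 77763246 to 77865980 and had 66.8 CPM (95% Poisson interval 65.3 to 68.3), or 8.89 CPM per kb. With 24 annotated transcripts and exons that together cover 16037 bases, against 7513 in the longest transcript, it was the member whose level per kb depended most on the length taken in the downward direction. Divided by the union of its exons, it was at 4.17 CPM per kb.

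The order of the members was the same at its ends under each length tried, but not in the middle. Myo5a was highest and Myo1d lowest whether CPM was divided by the longest transcript, the union of exons or the longest coding sequence. In between, Myo10, Myo1c and Myo6 came next after Myo5a per kb of transcript, at 22.7, 20.7 and 15.8. Per kb of coding sequence the same 3 genes were at 29.8, 30.6 and 32.3, which turns their order round. Per kb of exon union Myo1e, at 12.1, stood above Myo6, at 10.4, and Myo9a above Myo18a. Which transcripts the cells used was not measured by the counts per gene, so neighbours closer than these shifts have no settled order.

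**Figure D2:**
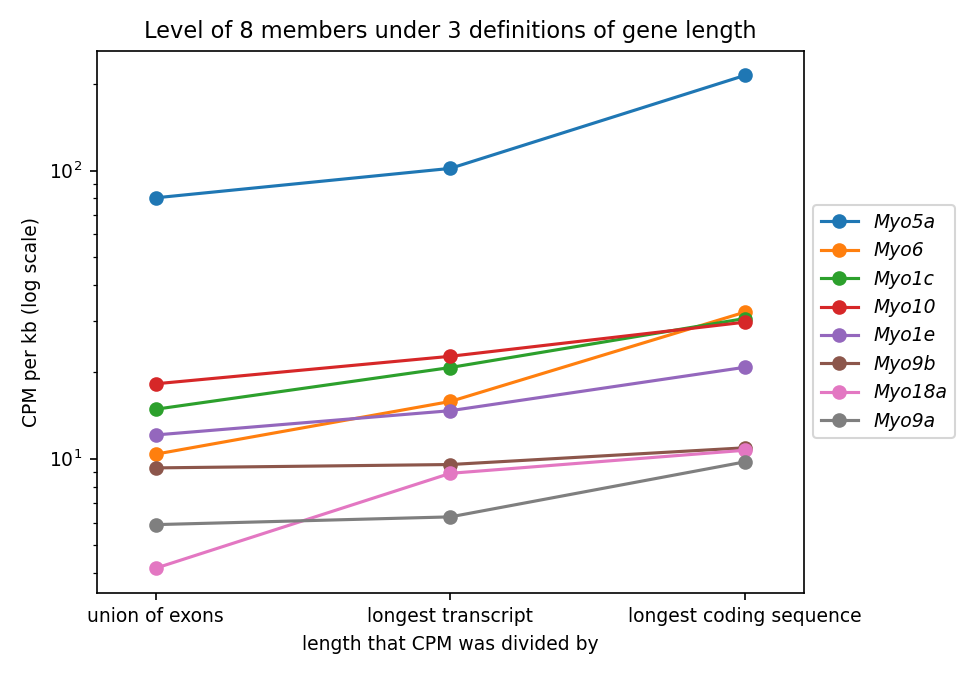
Level of 8 members (Myo1d is left out because it lies more than 100 times lower per kb) as CPM per kb on a log axis, divided by the union of exons, the longest transcript or the longest coding sequence. Points are means over the 6 libraries and lines join 1 gene. Myo5a stays on top at 80.4, 102 and 214, while the lines of Myo6, Myo10 and Myo1c cross.

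Other annotated genes overlap 7 of the members when each gene is taken from its start to its end, introns included. Whether their exons overlap was not tested. The overlap with another measured gene that had more than 1 CPM was that of Myo9b with Haus8, a subunit of the augmin complex of the spindle, at 27.2 CPM, on the opposite strand and over 221 bases at the gene start. Gm20275 on the opposite strand of Myo9a was at 0.0400 CPM, and Gm10277 opposite Myo18a had no read. Annotated genes with no value here also overlap members, namely Gm16353 and Gm9719 with Myo5a, Gm2862 and Gm48996 with Myo10, Gm27227 with Myo6, C030013C21Rik with Myo1d, and Gm2735, Gm7613 and Gm48805 with Myo9a. The libraries were made with a directional kit, which keeps the strand, but whether the counting used it is not given in the sources used here, so how reads in shared bases were assigned is unknown.

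Among the other listed unconventional myosins, Myo7a was the highest. It encodes myosin VIIa, known from hair cells of the inner ear and from melanosomes of the retinal pigment epithelium, and had 307 CPM, or 40.9 CPM per kb. Myo5a was 2.49 times as high per kb, a ratio that came to 4.63 per kb of coding sequence, and no member other than Myo5a was above Myo7a. Myo19, the mitochondrial myosin, was at 6.11, beside 6.28 for Myo9a, and this order turned per kb of coding sequence. Myo1h and Myo1a reached 3.80 and 2.24 CPM but 0.822 and 0.652 CPM per kb. The remaining 10 genes were below 1 CPM, among them Myo5b and Myo5c, the epithelial relatives of Myo5a, at 0.299 and 0.470 CPM. Myo15b, which was not in the list and was added after its value was seen, was at 0.161 CPM. Per kb of the longest transcript, the 9 members together held 80.4% of the summed level of the 23 listed genes that were found, and Myo5a alone held 40.8%. The choice of members may itself follow the level, and genes left out of the lists are not in the sum. Nothing is therefore read from these shares, which were not taken with the other lengths.

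Of 14 conventional heavy chain genes, 3 were at or above 1 CPM, beside 43.7% of all genes. Myh9, the non-muscle heavy chain of the cell cortex, was at 438 CPM, or 59.0 CPM per kb. Myo5a was 1.72 times Myh9 on this scale and 2.87 times per kb of coding sequence. Myh14 and Myh10, the other non-muscle chains, were at 6.06 and 3.18 CPM.

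The list of light chains and calmodulin holds chains that bind lever arms or tails of myosins, those of the conventional muscle myosins included. Of its 17 genes, 9 were at or above 1 CPM, beside 43.7% of all genes. Calm2, which codes for calmodulin, was the highest of them per kb at 526. Dynll2 and Dynll1, light chains shared by dynein and myosin Va, had 115 and 92.0 CPM per kb, on either side of the 102 of Myo5a. Per kb of coding sequence both lay above Myo5a, at 1065 and 772 against 214. Among the myosin light chains of the list, Myl6, Myl12a and Myl12b were at 56.0, 36.6 and 32.1 CPM per kb. Myl9, the smooth muscle regulatory chain, was at 0.0548 CPM, and Myl3 and Myl7 had no read.

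Adaptors of the melanosome motor were present. Rab27a, which recruits melanophilin to melanosomes, had 88.1 CPM per kb, and Mlph, which encodes melanophilin, had 34.6. Per kb of transcript, Myo5a was 1.15 times Rab27a and 2.94 times Mlph. Per kb of coding sequence it was 2.43 times Mlph but 0.508 times Rab27a, so its order with Rab27a turned with the length taken. Rab10, a GTPase of vesicle delivery, was at 73.3 CPM per kb, and Spire1, an actin nucleator that works with class V myosins, at 22.8. Myrip, which links Rab27a to myosin VIIa, was below the limit at 0.771 CPM. Of the 12 genes in this list, 9 were at or above 1 CPM, beside 43.7% of all genes.

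All 12 listed adaptors and partners of myosin VI were at or above 1 CPM, beside 43.7% of all genes. Cltc, the clathrin heavy chain of coated vesicles, led at 254 CPM per kb and Tax1bp1, an autophagy receptor, followed at 150. Optn and Gipc1, both binding partners of the myosin VI tail, were at 33.6 and 39.0 CPM per kb, above the 15.8 of Myo6. Dab2, the endocytic adaptor, was at 3.86 CPM per kb and so below Myo6.

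Of the listed partners of the other classes, 15 of 15 genes were at or above 1 CPM, beside 43.7% of all genes. The lists were chosen with earlier results of these data known, so nothing is read from these counts. Itgb1, the integrin chain that myosin X carries, was at 257 CPM per kb, and Golph3, the partner of myosin XVIIIa at the Golgi, at 75.5. Rhoa, the GTPase acted on by the class IX myosins, was at 53.2 CPM per kb, and Rhot1, a mitochondrial receptor of myosin XIX, at 27.6. The median of this list was 18.7 CPM per kb and that of the myosin VI list 23.5, beside 14.7 for the 9 members. The list of myosin V and VII adaptors lay below the members, with a median of 12.7. Per kb of coding sequence the medians were 41.7 for this list, 44.8 for myosin VI, 27.4 for myosin V and VII, and 20.8 for the members.

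**Figure D3:**
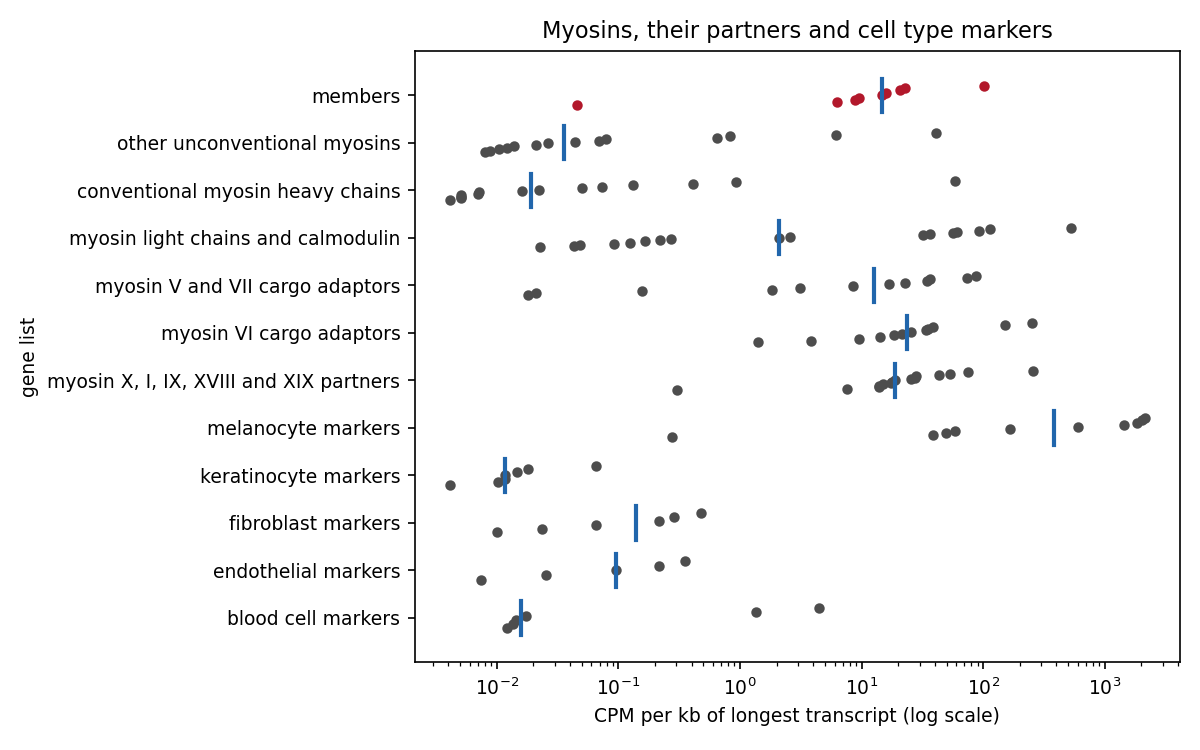
CPM per kb of the longest transcript on a log axis for each gene of 12 lists, as means over the 6 libraries, with the members in red and the median of each list as a blue line. Genes without a read appear at the value that 0.5 added reads give. The members lie between 6.28 and 102 CPM per kb except Myo1d, while keratinocyte markers lie at the low end and most melanocyte markers at the high end.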

How the data were processed

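RNA of B16F10 cells was sequenced from 3 OLO and 3 OZO libraries made with a directional kit. According to the methods and the submitters' processing notes, the authors aligned reads to mm10 with HISAT2 (2.1.0), counted them with featureCounts (2.1.1) and fitted limma-voom (3.58.1). Annotation version, filters and the strand setting of the counting are not given in the sources used here. The deposited table holds the average log2 CPM over all libraries, which was used, and 5 columns of the authors' comparison of the groups (log2 fold change, moderated statistic, p-values before and after adjustment, log odds), which were not used. The tests planned for values of single libraries were therefore not run.

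CPM was 2 to the power of the average. The library size followed from genes without reads, since voom adds 0.5 reads to each count. Whole reads behind a mean were sought with a relative tolerance of 1e-06. The calculations were tested on simulated counts. Lengths and positions came from GENCODE M21 (GRCm38), matched for 23906 of 24126 Ensembl identifiers. Proteins translated from coding sequences were aligned globally (BLOSUM62, gap penalties 11 and 1). Limits were 1 and 10 CPM. All members were named, as were other unconventional myosins at or above 1 CPM, overlapping genes and, from each further list, at most the 4 genes of highest CPM, of which some were left unnamed. Myo5b, Myo5c, Oca2, Myrip, Optn, Gipc1, Dab2, Rhot1, Myl12a, Myl12b, Myl9, Myl3, Myl7, Myo15b, Krt5 and Dsg3 were named after their values were seen. Some genes are not reported here and were left out of the lists and their sums. Members and lists were chosen with earlier results of these data known. Tools were biopython 1.88, matplotlib 3.10.9, pandas 2.3.3, scipy 1.17.1 and numpy 2.4.6 under Python 3.11.15.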

Additional observations from a re-analysis of the deposited data

How the results depend on the processing

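No paired analysis was possible because only 1 mean per gene over all 6 libraries was used, and for the same reason another test or normalization, another pseudocount, a filter on low counts and leaving out each library were not run. The number of members at or above 1 CPM was 8, and it was 8 with a limit of 10 CPM and with the 0.5 added reads subtracted. The highest member per kb was Myo5a under each length, at 102 CPM per kb of the longest transcript, 80.4 with the union of exons and 214 with the longest coding sequence. With the union of exons the levels per kb of the 9 members became 0.468 to 0.973 times their value, and with the coding sequence 1.14 to 2.103 times. Subtracting the added reads left all 9 levels within counting error, with the largest shift for Myo1d, to 0.895 times its level. Ratios between genes were taken with the other lengths after the data had been seen. Per kb of coding sequence the ratios of Myo5a to Rab27a (0.508), Myo5a to Dynll1 (0.277), Myo9a to Myo19 (0.860) and Myo10 to Myo1c (0.971) turned below 1. Percentiles of all 9 members were higher among all genes and lower among genes at or above 1 CPM, where Myo5a lay above 95.9% of genes and Myo10 above 73.3%. Depth limits Myo1d, whose level rests on about 4.27 reads in a library as a geometric mean.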
